A study of Mus musculus with 3 samples.

Results

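The complement genes described here are 9 of the 21760 genes in a table of mouse corneal transcripts, found by matching gene symbols exactly, and all 9 passed the minimum of 20 counts in at least 1 library. They comprise the 3 chains of C1q (C1qa, C1qb and C1qc), the classical pathway components C2 and C4b, the central component C3, factor B of the alternative pathway (Cfb) and the surface inhibitors Cd55 and Cd59a. Messenger RNA of the cornea, the transparent front of the eye, was sequenced in 3 libraries with 1 library per group. Sham mice had a cut near the tear glands, which were left in place. Excision mice had lost the lacrimal gland, a surgical model of dry eye. The third group received PNU-282987, which activates the α7 nicotinic acetylcholine receptor, as eyedrops 3 times a day. The labels do not state whether the PNU-282987 mice had also lost the gland, nor the strain, sex or age of any group, nor whether several mice were pooled. The study asked about this receptor in dry eye disease.

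Complement is a chain of plasma and tissue proteins that tags surfaces for uptake, calls in leukocytes and can pierce membranes. C1q, a bundle of collagen-tailed stalks built from equal numbers of its A, B and C chains, opens the classical pathway by binding antibody or damaged surfaces, and in most tissues macrophages make it. Its partner proteases C1r and C1s cut C4 and C2 to form an enzyme that splits C3, and factor B forms a second such enzyme in the alternative pathway. Host cells are shielded by CD55, which takes these enzymes apart, and by CD59, which blocks the final membrane pore. The eye surface is known to keep complement active at a low level and to depend on such inhibitors.

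Each level is given as CPM, the count per 1000000 counts of the library's effective size, which was set with TMM factors. Values for several libraries stand in the order sham, excision, PNU-282987. With 1 library per group the spread between animals is unknown, so no test was made and every comparison is between libraries. A fold is given with its 95% counting interval in parentheses. A gene is called different only if the fold reached 2 and its interval left out 1. The interval covers counting error only, and it may be too narrow even for that, since reads are not independent molecules. Total counts were 37703843, 37692972 and 39616004, and a count of 0 would allow up to 3 counts, or 0.0768 to 0.0808 CPM. The corneal keratin Krt12 was the most abundant of 10 corneal epithelial markers in the table, with 1541851, 1135144 and 1634592 counts. Lens markers were far lower in the excision library than in the others (summed level 577.5, 19.7 and 540.2 CPM), and corneal endothelial markers were too (1104, 186 and 802 CPM). In such bulk samples, fewer cells of a type and less RNA per cell cannot be told apart.

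The letters upstream of the genes are shown first for 4 members, a pair that was higher in the excision library (C1qb and C1qc) and a pair that was not (Cd59a and C3). RefSeq's promoter table for GRCm38.p6 held 5 of the 9 members, and the build the authors used is not given in the sources used here. Each window has 90 bases, written 5′ to 3′ on the gene's strand, and capitals mark a motif match. In C1qb (chr4:136886201-136886290, minus strand) and C1qc (chr4:136893075-136893164, minus strand) the capitals mark GAGGAA or its reverse complement, the core of sites for ETS factors such as the macrophage regulator PU.1. In Cd59a (chr2:104095551-104095640, plus strand) they mark GAAA, 2 bases of any kind and GAAA, the repeat found in interferon-stimulated response elements. In C3 (chr17:57228137-57228226, minus strand) they mark TTGCNNAA, a form of the site for C/EBP factors.
C1qb: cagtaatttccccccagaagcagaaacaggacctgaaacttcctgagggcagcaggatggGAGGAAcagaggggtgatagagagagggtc
C1qc: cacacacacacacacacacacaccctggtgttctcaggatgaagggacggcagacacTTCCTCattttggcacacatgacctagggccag
Cd59a: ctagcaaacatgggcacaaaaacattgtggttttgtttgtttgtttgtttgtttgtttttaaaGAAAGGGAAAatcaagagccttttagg
C3: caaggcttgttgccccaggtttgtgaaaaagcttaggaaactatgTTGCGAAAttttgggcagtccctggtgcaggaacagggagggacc

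The motifs were searched on both strands in the 250 bases before each start, and a match is a description, not a binding site. GAGGAA began 30 bases before the start of C1qb, 193 before that of C1qc and 62 before that of Cd59a, and 23.3% of all 32851 promoters in the table held it. The interferon-type repeat began 187 bases before the start of Cd59a and was held by 3.0% of promoters. TTGCNNAA began 45 bases before the start of C3 and was held by 9.6% of promoters. TTCNNNGAA, the palindrome bound by STAT factors (7.0% of promoters), and an NF-kB form of GGG, 2 bases of any kind and TTTCC (1.4%), were not among the letters of the 5 windows.

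Excision was compared with sham for differences in a cornea without its gland. Of the members, C1qa, C1qb, C1qc, C2, C4b and Cfb were higher in the excision library, 2.57-fold to 3.42-fold. Early components outside the members, C1s1, C1ra and the measured lectin pathway genes, were lower there, as described further on. C3, at the centre of the cascade, was lower by less than 2-fold, and of the inhibitors Cd59a was lower. Of the 9 members 6 were called higher, where 4.01% of the 14170 genes with a ratio were, and 1 was called lower, where 5.48% were. C4b, with 18 counts in sham, passed the count minimum only through the excision library. An excision level below that of sham would thus have left it untested. Without it 5 of 8 members were called higher. The median log2 ratio was 1.42 over the 9 members, 1.52 without C4b and 0.00 over all genes.

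**Figure D1:**
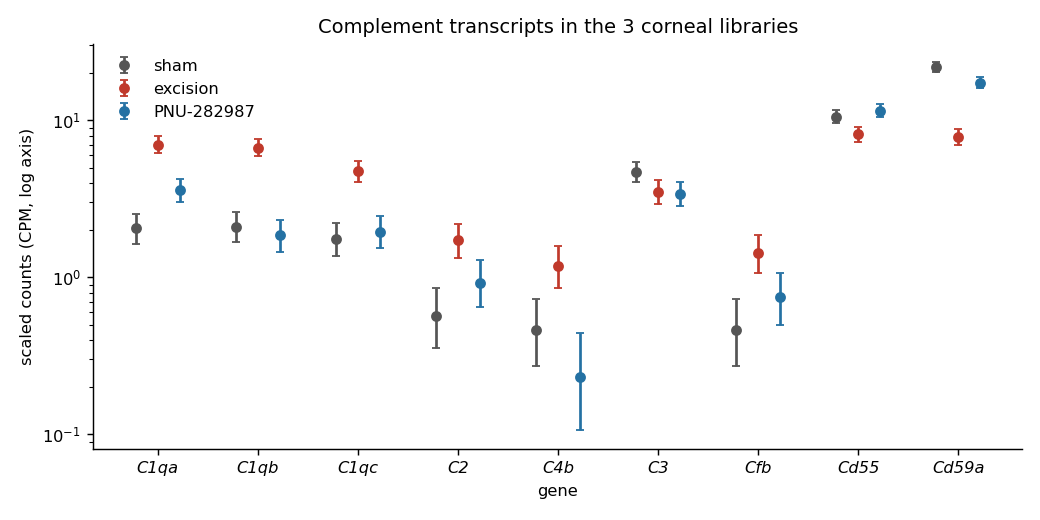
Level of each complement gene in the sham, excision and PNU-282987 libraries, in CPM on a log axis; points are single libraries and bars are 95% counting intervals. The excision library is the highest for C1qa, C1qb, C1qc, C2, C4b and Cfb, and the lowest for Cd55 and Cd59a.

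**Figure D2:**
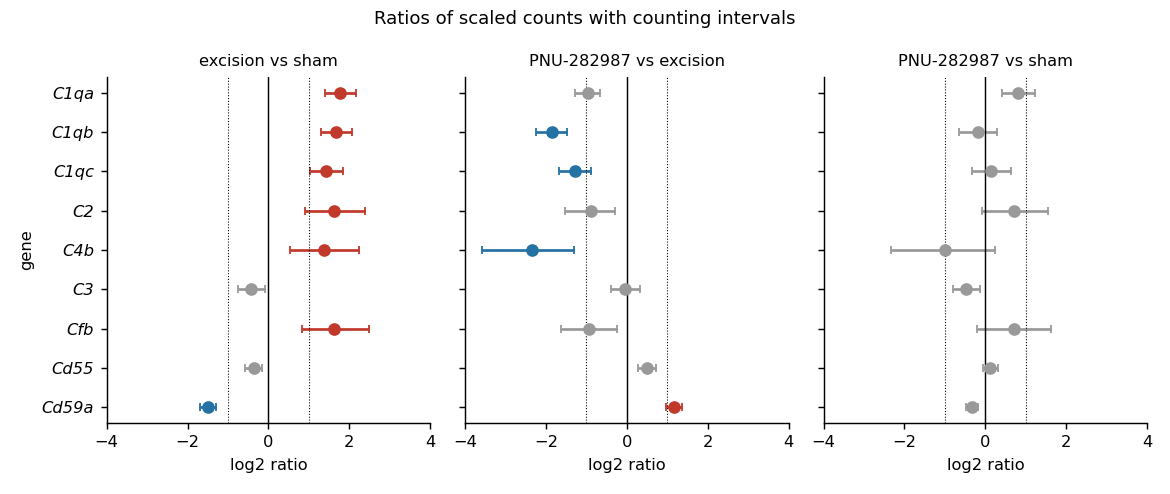
Log2 ratios of scaled counts for the 9 genes in the 3 comparisons, with 95% counting intervals; dotted lines mark 2-fold, red points were called higher and blue points lower. In excision against sham 6 genes are called higher and 1 lower, and in PNU-282987 against sham none is called.

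The C1q chains had the firmest differences among the higher members since their counts were the largest of those 6. C1qa (gene ID 12259), the A chain, had 80, 260 and 139 counts, or 2.05, 7.004 and 3.58 CPM. Excision was thus the highest library and PNU-282987 lay between the others. The excision level was 3.42-fold that of sham (2.65 to 4.45). C1qb (gene ID 12260), the B chain, had 82, 249 and 72 counts, or 2.10, 6.71 and 1.85 CPM. Here the sham and PNU-282987 levels lay within each other's counting error, and excision was 3.19-fold (2.48 to 4.15) higher than sham. C1qc (gene ID 12262), the C chain, had 69, 176 and 76 counts, or 1.77, 4.74 and 1.96 CPM, again with excision alone above the others (2.68-fold over sham, 2.02 to 3.598). Summed, the chains had 231, 685 and 287 counts, and excision was 3.12-fold (2.68 to 3.64) higher than sham.

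The chains are neighbours on chromosome 4 in RefSeq, in the order C1qb, C1qc and C1qa with no other protein-coding gene between them. They kept similar proportions in sham and excision. C1qa made up 34.6% of C1q counts in sham (exact 95% binomial interval 28.5 to 41.2) and 38.0% in excision (34.3 to 41.7), and C1qb made up 35.5% (29.3 to 42.0) and 36.4% (32.7 to 40.1). C1qc made up 29.9% in sham and 25.7% in excision, the latter close to its PNU-282987 share given next. In the PNU-282987 library the balance was different: C1qa made up 48.4% (42.5 to 54.4), while C1qb made up 25.1% (20.2 to 30.5) and C1qc 26.5% (21.5 to 32.0). The ratio of C1qa to C1qb was 1.98 times that of sham (exact conditional 95% interval 1.27 to 3.08) and 1.85 times that of excision (1.31 to 2.62), values that do not depend on the scaling. The ratio of C1qa to C1qc in PNU-282987 was 1.58 times that of sham (1.006 to 2.47), with an interval that barely left out equal ratios. Against excision it was 1.24 times (0.871 to 1.77), not distinguishable from equal ratios. None of the 50-base windows of the 3 transcripts was shared with another gene of GENCODE M21. Whether the shift would recur in a second PNU-282987 library was not tested.

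**Figure D3:**
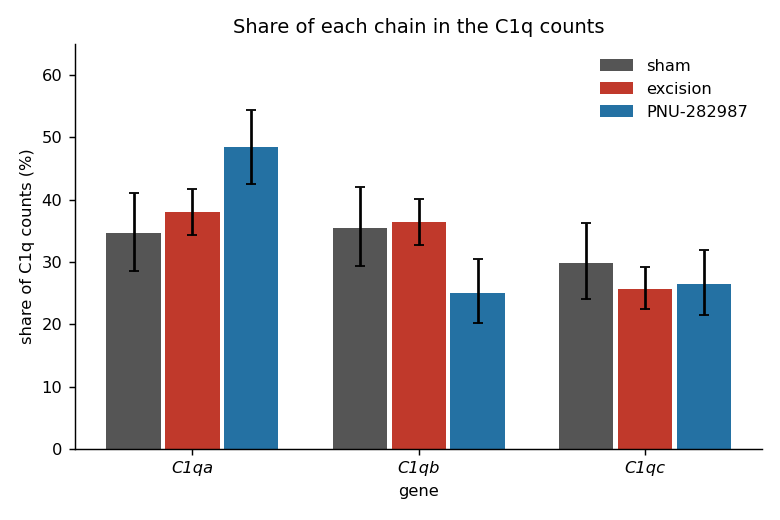
Share of C1qa, C1qb and C1qc in the summed C1q counts of each library, in percent, with exact 95% binomial intervals as error bars. C1qa holds 34.6%, 38.0% and 48.4%, from sham through excision to PNU-282987.

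The early components C2, C4b and Cfb were scarce, and each was highest in the excision library. C2, the protease part of the classical C3-splitting enzyme (gene ID 12263), had 22, 64 and 36 counts, and excision was 3.06-fold (1.86 to 5.22) higher than sham. Cfb, its counterpart in the alternative pathway (gene ID 14962), had 18, 53 and 29 counts and differed by 3.10-fold (1.79 to 5.62). C2 and Cfb lie side by side on chromosome 17, and C2 held nearly the same share of their joint counts in each library, at 55.0%, 54.7% and 55.4%. A GENCODE M21 gene that spans both, Gm20547, shares 58.0% of the 50-base windows of C2 and 81.4% of those of Cfb. Whether the authors' annotation held it, and so how such reads were assigned, is not given in the sources used here.

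C4b (gene ID 12268), which encodes the component that C1s cuts before C2, had 18, 44 and 9 counts, or 0.461, 1.19 and 0.232 CPM. Excision was 2.57-fold (1.46 to 4.73) higher than sham. The second mouse copy C4a shares 35.2% of the 50-base windows of C4b and is not analysed here, so the level of C4b is uncertain.

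C3 and the inhibitors were lower in excision than in sham, and of these Cd59a passed 2-fold. C3 (gene ID 12266), the component on which all pathways meet, had 184, 130 and 132 counts, or 4.71, 3.50 and 3.40 CPM. Sham was the highest library and the others lay within each other's counting error, and excision was 1.35-fold (1.07 to 1.70) lower than sham. Of the joint counts of C3 and its partner Cfb, Cfb made up 8.91% (exact 95% binomial interval 5.37 to 13.7), 29.0% (22.5 to 36.1) and 18.0% (12.4 to 24.8). The excision share lay above the sham share beyond counting error. The excision to sham ratio of Cfb was 4.17 times that of C3 (2.27 to 7.90), that of C2 4.12 times (2.36 to 7.37) and that of C4b 3.46 times (1.86 to 6.64).

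Cd59a (gene ID 12509), which encodes the blocker of the membrane pore, had 855, 290 and 676 counts, or 21.9, 7.81 and 17.4 CPM. Excision was well below both other libraries and 2.80-fold (2.45 to 3.21) lower than sham. The second mouse copy, Cd59b, had 37, 15 and 33 counts and was 2.34-fold lower (1.26 to 4.598). Cd59a made up 95.9%, 95.1% and 95.3% of the counts of the pair, and 4.0% of its 50-base windows occur in Cd59b. Cd55 (gene ID 13136), the decay-accelerating inhibitor, had 412, 303 and 447 counts and was 1.29-fold (1.11 to 1.504) lower in excision than in sham, under the 2-fold mark. Of its 50-base windows 13.3% occur in the neighbouring copy Cd55b, which is not analysed here. Cd59a differed by more than Cd55: its excision to sham ratio was 0.461 times that of Cd55 (0.376 to 0.566).

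Lens, corneal endothelial and stromal markers were lower in excision than in sham. So were Cd59a and the genes C1s1, C1ra and those of the lectin pathway described further on. All 7 corneal endothelial and all 11 lens markers were called lower in excision than in sham, where 5.48% of all genes were. Their summed levels are given above. In PNU-282987 against excision 6 of the 7 endothelial and all 11 lens markers were called higher, where 3.90% of all genes were. Of 10 keratocyte and stromal markers 4 were called lower in excision than in sham (Kera, Ogn, Chst5 and Ptgds), where 5.48% of genes were. The other 6 were not called, though all 10 had a ratio below 1. Summed, the 10 stood at 1979, 1261 and 1320 CPM. In PNU-282987 against excision 2 of the 10 were called higher (Ogn and Ptgds), where 3.90% of all genes were, and none lower. Of the 10, 6 had a ratio above 1 there and 4 below. No marker of these 3 lists was at 0 in sham, and the lens channel gene Mip was at 0 in excision. Their part in the Cd59a difference was not tested.

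Most macrophage, monocyte, T and NK cell markers were, like the C1q chains, higher in excision than in sham, while most neutrophil markers were lower. Of 20 macrophage and monocyte markers, listed without the C1q genes, 15 were tested. In excision against sham 13 of these had a ratio above 1. The 2 below 1 were Cd14 (84, 73 and 144 counts) and Ly6c2 (37, 26 and 5). Of the 15 tested, 5 were called higher (Csf1r, Fcer1g, Lyz2, Mrc1 and Lyve1) and none lower, where 4.01% and 5.48% of all genes were. Of these 5, Mrc1 and Lyve1 reached 20 counts in excision alone. The summed level of all 20 markers was 57.6, 86.7 and 66.5 CPM. The defining macrophage gene Adgre1 had 22, 37 and 23 counts, the receptor gene Csf1r 50, 105 and 61, and the scavenger receptor gene Cd163 was at 0 in sham and PNU-282987 with 3 counts in excision. T and NK cell markers had summed levels of 0.589, 8.75 and 1.26 CPM, with Cd3d, Cd3g, Cd8a and Cd4 at 0 in sham. The 5 of them that were tested reached 20 counts in excision alone, and Klrb1c went the other way (5, 0 and 0 counts). Dendritic cell markers had summed levels of 0.563, 1.02 and 0.438 CPM, and none reached 20 counts. Flt3, Cd209a and Ccr7 were at 0 in sham, while Zbtb46, the most abundant, had 18, 13 and 10 counts and Xcr1 1, 0 and 1. Interferon-stimulated genes had 12 of 12 measured members called higher in excision than in sham, where 4.01% of all genes were. Their summed levels were 496, 2467 and 389 CPM. Neutrophil markers (76.4, 35.3 and 63.0 CPM) and haemoglobin and other red cell markers (71.8, 17.2 and 9.61 CPM) had a lower sum in excision than in sham. Of 8 neutrophil markers tested, 7 were called lower in excision than in sham, where 5.48% of all genes were. In PNU-282987 against sham 6 were called lower, where 4.96% were. Ltf (920, 995 and 1486 counts) and S100a9 (718, 34 and 617) were the most abundant neutrophil markers in PNU-282987. Among liver markers, liver being the main source of circulating complement, albumin (Alb) had 0, 2 and 0 counts, Apoa1 568, 658 and 467, and Ttr 45, 42 and 111, with a summed level of 15.7, 18.9 and 14.9 CPM. Ttr was called higher in PNU-282987 than in either other library. The part of these cells in the complement differences was not tested.

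**Figure D4:**
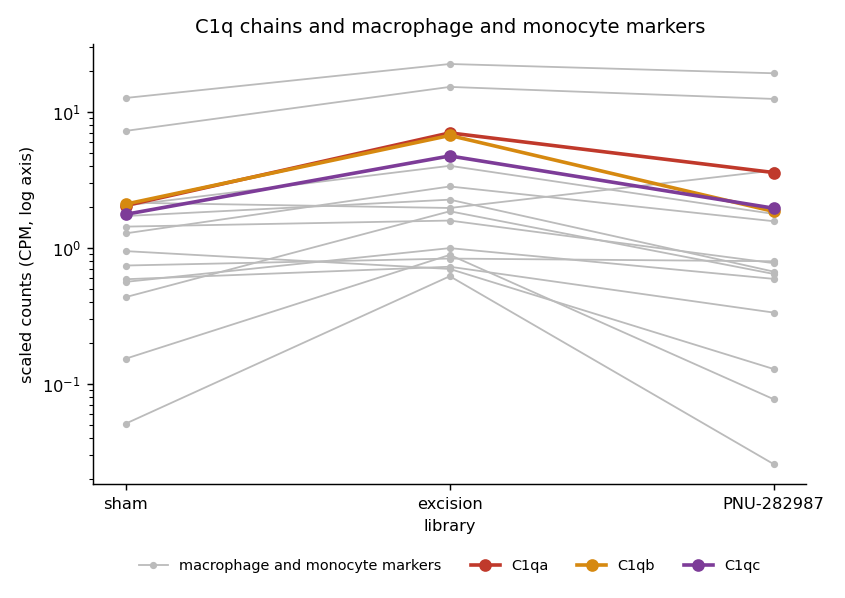
Level of C1qa, C1qb and C1qc (coloured) and of 14 of the 15 macrophage and monocyte markers with at least 20 counts in 1 library (grey), in CPM on a log axis, in the 3 libraries; each line joins 1 gene's values. The C1q chains peak in excision, at 4.74 to 7.004 CPM, and 5 of the markers are called higher there than in sham.

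PNU-282987 was compared with excision for differences between a cornea given the agonist and one after gland loss. The 6 members that were higher in excision than in sham were lower in PNU-282987, by 1.86-fold to 5.11-fold, and Cd59a was higher. At the 2-fold threshold 3 members were called lower (C1qb, C1qc and C4b), where 5.62% of 14171 genes were, and 1 was called higher, where 3.90% were. C4b passed the count minimum only through excision here too, and without it 2 of 8 members were called lower. At a 1.5-fold threshold all 6 were called lower, C4b among them, where 11.2% of genes were. This comparison shares the excision library with the one above, so the 2 are not independent. Macrophage and monocyte markers had 8 of 15 called lower in PNU-282987 than in excision and none higher. Of these 8, Mrc1 (6, 33 and 3 counts) and Lyve1 (2, 23 and 1) passed the count minimum only through excision. Among interferon-stimulated genes, 11 of 12 were called lower. Conjunctival and gland markers had their highest sum in PNU-282987 (summed level 2101, 3476 and 5437 CPM). Most of it was Krt13 (2022, 3091 and 4619 CPM), and Krt4 also rose stepwise (77.2, 381 and 557 CPM). Others were nearly confined to PNU-282987, such as Muc5ac (1, 11 and 2980 counts) and Gp2 (5, 4 and 3801). All 8 tested were called higher there than in sham, where 2.58% of all genes were. Of these 8, Muc5ac, Muc5b, Gp2 and Scgb2b2 passed the count minimum only through PNU-282987. The part of the conjunctival and gland markers in the complement values was not tested. Of the C1q chains, C1qb was 3.62-fold (2.77 to 4.77) lower than in excision, C1qc 2.42-fold (1.84 to 3.21) and C1qa 1.96-fold (1.59 to 2.42).

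C2 was 1.86-fold (1.22 to 2.88) and Cfb 1.91-fold (1.19 to 3.12) lower in PNU-282987 than in excision. C4b differed by more, 5.11-fold (2.46 to 11.9), on 9 counts in PNU-282987, and its ratio was 0.364 times that of C2 (0.141 to 0.873). Cd59a was 2.23-fold (1.94 to 2.57) higher in PNU-282987 than in excision, and Cd55 was 1.41-fold (1.22 to 1.64) higher. C3 did not differ detectably at this depth: it was 1.03-fold lower, with an interval from 0.802 to 1.32.

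Between PNU-282987 and sham no member was called, where 2.58% of 14161 genes were higher and 4.96% lower. This comparison shares a library with each of the others. The count intervals still excluded equal levels for 3 members, all under 2-fold. C1qa was 1.75-fold (1.32 to 2.33) higher in PNU-282987 and was the member called at a 1.5-fold threshold, where 5.03% of genes were called higher. C3 was 1.39-fold (1.10 to 1.75) lower and Cd59a 1.26-fold (1.14 to 1.39) lower. C1qb (1.13-fold lower, 0.815 to 1.58), C1qc (1.11-fold higher, 0.789 to 1.56) and Cd55 (1.09-fold higher, 0.952 to 1.25) were not distinguishable from sham. For C2, Cfb and C4b the counts were too few to exclude differences of up to 2.94-fold, 3.10-fold and 5.03-fold.

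Levels per transcript length, in CPM per kilobase of the longest coding transcript in GENCODE M21, put the 2 inhibitors above the other 7 of the 9 members in sham. Cd59a stood at 12.1 (95% counting interval 11.3 to 13.0), Cd55 at 4.16 (3.77 to 4.59), C1qa at 1.97 (1.56 to 2.45), C1qb at 1.93 (1.54 to 2.40), C1qc at 1.47 (1.14 to 1.86) and C3 at 0.917 (0.790 to 1.06). C2 (0.213, 0.134 to 0.323), Cfb (0.168, 0.0993 to 0.265) and C4b (0.0857, 0.0508 to 0.135) came last. Outside the members, the protease gene C1s1 stood at 9.98 (9.41 to 10.6) in sham, above Cd55. Other regulator genes stood above Cd59a in sham: Clu at 179 (176 to 182), Cr1l at 22.9 (22.1 to 23.9) and Serping1 at 21.9 (20.8 to 23.1). Neighbours in this order of members overlapped in their intervals among the C1q chains and from C2 to C4b. In excision the order changed at the top: C1qa stood at 6.73 (5.94 to 7.61) and C1qb at 6.17 (5.42 to 6.98), above Cd59a at 4.33 (3.84 to 4.85) and Cd55 at 3.22 (2.87 to 3.61). In PNU-282987 Cd59a (9.64, 8.93 to 10.4) and Cd55 (4.54, 4.13 to 4.99) were again the highest of the 9 members, followed by C1qa at 3.44 (2.89 to 4.06).

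The rest of the pathway was read from a list of 43 further complement genes, of which 35 were in the table and 20 passed the count minimum. In excision against sham 3 of the 20 were called higher, where 4.01% of all genes were, and 6 lower, where 5.48% were, with a median log2 ratio of -0.13. All 3 that were higher (Itgax, Itgb2 and Cd46) passed the minimum only through the excision library. The proteases that join C1q were lower in excision, not higher. C1s1, the active protease of C1, had 1148, 684 and 1046 counts (1.60-fold lower in excision than in sham, 1.45 to 1.76), and C1ra, which activates it, had 331, 251 and 283 (1.25-fold lower, 1.06 to 1.48). The excision to sham ratio of C1qa was thus 5.45 times that of C1s1 (4.15 to 7.22), and the 3 chains together made up 13.5%, 42.3% and 17.8% of the counts of C1q, C1ra and C1s1. C1rl, a relative of C1r, had 168, 38 and 83 counts and was called lower in excision (4.20-fold, 2.94 to 6.14).

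Lectin pathway genes were lower in excision in all 3 measured cases. Masp1, a protease of that pathway, had 259, 81 and 149 counts (3.04-fold lower in excision, 2.36 to 3.95). Colec12, a scavenger collectin, had 215, 99 and 102 counts (2.06-fold lower, 1.62 to 2.65), and the ficolin gene Fcnb, expressed in myeloid cells, had 41, 7 and 21 (5.57-fold lower, 2.47 to 14.7). These genes were lower in the library in which lens, endothelial, stromal and neutrophil markers were lower too, whose part was not tested. Colec12 and C1rl were the 2 of the 20 genes called in PNU-282987 against sham, both lower. In PNU-282987 against excision 4 of the 20 were called higher (C1rl, Fcnb, Cr2 and Cd59b) and 3 lower (C5ar2, Itgax and Itgb2), where 3.90% and 5.62% of all genes were. Itgax and Itgb2 passed the count minimum only through excision.

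Receptors went both ways. The integrin genes of the phagocyte receptors for C3 fragments were higher in excision: Itgb2, the shared β chain, had 14, 43 and 15 counts (3.23-fold higher, 1.73 to 6.40), and Itgax, an α chain, had 7, 33 and 11 (4.96-fold higher, 2.16 to 13.3). Itgam, the other α chain, was within 2-fold at 6871, 9385 and 6949 counts, yet stood at 37.6 CPM per kilobase in sham against 0.121 for its partner Itgb2. Which cells its reads came from was not tested. The complement receptor gene Cr2, known from B cells, had 48, 2 and 24 counts (22.8-fold lower in excision, 5.98 to 194). The anaphylatoxin receptor gene C3ar1 had 11, 22 and 14 counts and was not distinguishable from equal levels, and C5ar2 had 53, 66 and 30 and was called lower in PNU-282987 than in excision (2.30-fold, 1.47 to 3.67).

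Of the regulators, the abundant ones were within 2-fold. Clusterin (Clu), a soluble blocker of the membrane pore, had 12630, 9569 and 12940 counts, and Cr1l, the rodent surface regulator Crry, had 2487, 1807 and 2766, each within 2-fold and lowest in excision. Serping1, the inhibitor of C1r and C1s, had 1514, 1966 and 1486 counts and was 1.37-fold (1.28 to 1.46) higher in excision than in sham. The surface cofactor gene Cd46 had 9, 22 and 11 (2.57-fold higher in excision, 1.14 to 6.34). Properdin (Cfp), which steadies the alternative pathway enzyme, had 70, 82 and 64 counts and C8g, a chain of C8, had 34, 34 and 35. The other terminal genes in the table (C7, C8a and Hc, which encodes C5) had at most 3 counts in any library, and factor D (Cfd) at most 1.

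**Figure D5:**
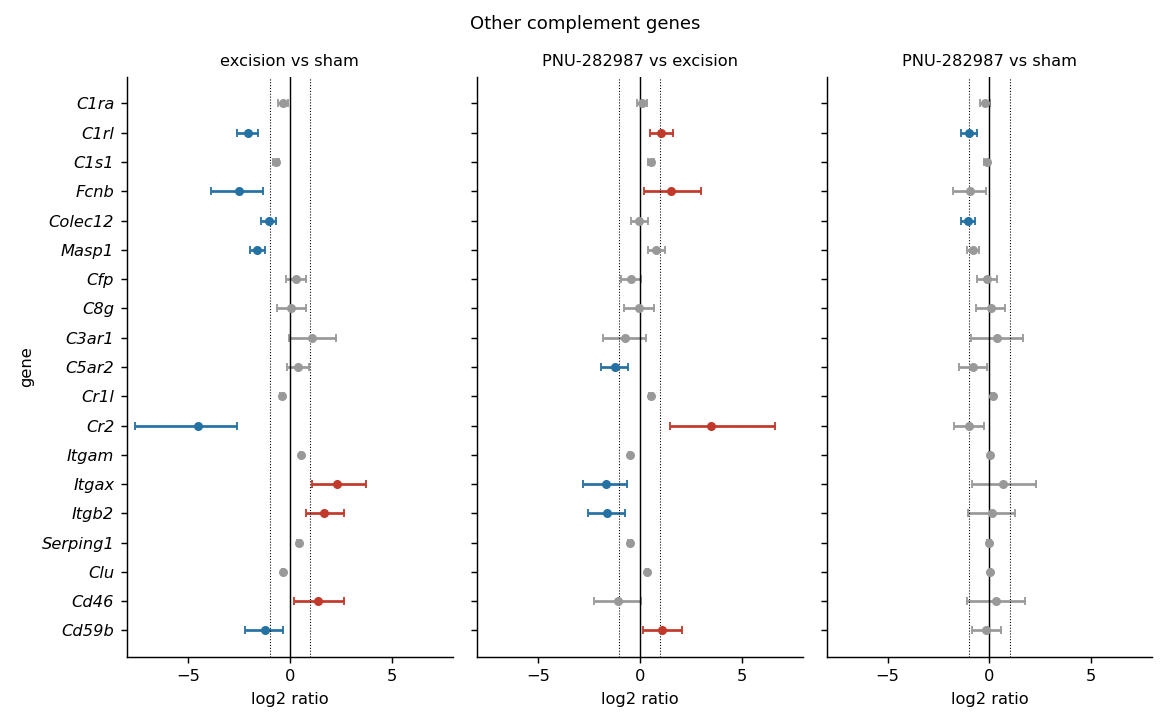
Log2 ratios of scaled counts for 19 of the 20 other complement genes with at least 20 counts in 1 library, in the 3 comparisons, with 95% counting intervals; dotted lines mark 2-fold, red points were called higher and blue points lower. In excision against sham 3 genes are called higher and 6 lower, and in PNU-282987 against sham 2 are called lower.

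Genes with the pattern closest to the summed C1q chains over the 3 libraries were sought among 11419 genes with at least 100 counts in 1 library and none at 0, by the distance between centred log2 levels. The 5 nearest were Gbp7 (317, 1004 and 430 counts; distance 0.0932), Cyp2w1 (70, 216 and 96), Oasl2 (7547, 20116 and 8792), Tap1 (1345, 3658 and 1698) and LOC118568331 (202, 525 and 234). Gbp7, Oasl2 and Tap1 are known to be induced by interferon. For C3 the nearest were Tceal8, Rassf6, Rab31, Twf2 and Ofd1, and 132 genes lay within 0.1 of it, so that its pattern was a common one. The likeness rests on 3 libraries, and the distances leave out counting error. That of the C1q sum (3.12-fold in excision against sham, 2.68 to 3.64) is too wide to settle the order of the nearest genes. Whether interferon had a part in the C1q levels was not tested.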

How the data were processed

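The authors deposited 1 table of whole-number read counts per gene for 3 corneal libraries, 1 per group, and the counts were used as deposited. Per the submitters' processing notes, HTSeq and R 3.2.0 were used; the sources used here do not give the aligner, build, annotation, strand setting or treatment of shared reads. Columns were matched to samples by title and groups taken from the treatment label.

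Counts were scaled with TMM factors (edgeR 4.0.16, R 4.3.3; 1.04 for sham, 0.985 for excision, 0.980 for PNU-282987). Of 21760 genes, 14180 had at least 20 counts in at least 1 library. Ratios carry exact conditional binomial 95% intervals (SciPy 1.17.1), a count of 0 was set to 3 counts, and no ratio was formed where both counts were 3 or fewer. The scheme was tested on simulated data. The upstream motifs and windows were chosen after their sequences were seen. Alternatives were 3 other scalings (one from DESeq2 1.42.0), no minimum, a minimum of 100 and a 1.5-fold threshold. All 9 members, and the other complement genes past the minimum, were named, except 1; it and 1 macrophage marker are left out of the plots and not reported here; cell type and response lists were given by counts and sums with a few markers. Members and lists were chosen with earlier results of these data known. Transcript lengths and shared windows came from GENCODE M21, promoters from RefSeq.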

Additional observations from a re-analysis of the deposited data

How the results depend on the processing

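The 9 members kept their ratios within the main counting interval in all 81 values from the 3 other scalings, and the largest shift of the all-gene median log2 ratio was with library totals, at -0.08 for excision against sham and for PNU-282987 against sham. No scaling changed the members called. With a minimum of 100 counts, which removes C2, C4b and Cfb from the genes tested, 4 members were called in excision against sham. With a 1.5-fold threshold 7 members were called in PNU-282987 against excision and 1 in PNU-282987 against sham.

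Genes called over the whole table numbered 1345 (excision against sham), 1350 (PNU-282987 against excision) and 1069 (PNU-282987 against sham). They were 2025, 2033 and 1729 with no minimum, 550, 511 and 326 with a minimum of 100, and 2447, 2663 and 2088 with a 1.5-fold threshold. Of the other complement genes, 9, 7 and 2 were called in these comparisons. The minimum of 100 gave 3 in excision against sham and 1 in PNU-282987 against excision. In PNU-282987 against sham 4 were called with library totals, 5 with no minimum and 6 with a 1.5-fold threshold.

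No paired analysis was possible because each group has 1 library, which also left no library to omit. Depth limits C2, C4b and Cfb most, at 9 to 64 counts.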
